A study of Saccharomyces cerevisiae with 13 samples.

Results

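The genes described here are the 10 of yeast (Saccharomyces cerevisiae) that make, lengthen, desaturate, bind and activate fatty acids in the cytosol and endoplasmic reticulum: ACC1 (YNR016C), FAS1 (YKL182W), FAS2 (YPL231W), OLE1 (YGL055W), ELO1 (YJL196C), ELO2 (YCR034W), ELO3 (YLR372W), ACB1 (YGR037C), FAA1 (YOR317W) and FAA4 (YMR246W). They were taken by systematic name from the tables of reads per gene, and all 10 of the 10 were found among 5694 genes. Footprints of stacked ribosomes (disome-seq), footprints of single ribosomes (monosome-seq) and fragments of mRNA (mRNA-seq) were counted, with 2 biological replicates of each in each of the 2 media. The first group, labelled strain S288C, was kept at 30 °C in a synthetic complete medium lacking histidine, with 3-AT at 100 mM. 3-AT is an inhibitor of histidine synthesis that slows ribosomes at histidine codons. The other group was kept in YPD, a rich medium, at the same temperature and is labelled BY4742, a laboratory strain of mating type alpha whose genotype the labels write as his3Δ1 leu2Δ0 lys2Δ0 uraΔ0, the last being the allele of URA3. Strain, medium and drug change together between these groups and cannot be told apart. An additional library held footprints of ribosomes from transcripts that carried 2 ribosomes, from the rich medium, with no replicate.

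Fatty acid synthesis starts when acetyl-CoA carboxylase (Acc1) turns acetyl-CoA into malonyl-CoA, the unit by which chains grow. The cytosolic fatty acid synthase, a barrel built from the β subunit Fas1 and the α subunit Fas2, joins these units into long-chain acyl-CoA. The chains are then desaturated by Ole1, lengthened by the Elo enzymes, bound by the carrier Acb1, and fatty acids set free or taken up are activated again by the acyl-CoA synthetases Faa1 and Faa4. In budding yeast several of these genes are known to be induced by the regulators Ino2 and Ino4 when inositol is scarce.

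The tables held 21133 and 18790 disome footprints in 3-AT, against 47391 and 34707 in rich medium, and between 230583 and 2836320 counts in the monosome-seq and mRNA-seq libraries. These are totals of length classes and not of whole libraries. The strain labels were checked with genes that have deletion alleles in BY4742, and the counts of URA3 and LYS2 went against them in part. HIS3 is not read against the labels, which do not say how much of the gene the allele his3Δ1 removes. URA3 had 22 and 14 mRNA-seq reads in the libraries labelled S288C and 138 and 181 in those labelled BY4742. LYS2 was listed at 0 in the mRNA-seq libraries labelled BY4742 and not listed in those labelled S288C, whereas the library from transcripts with 2 ribosomes, labelled BY4742, held 62 LYS2 and 49 HIS3 footprints and 0 of URA3. HIS3, which the 3-AT medium requires, had 934 and 578 mRNA-seq reads in 3-AT and 149 and 240 in rich medium. The groups are therefore named by medium below, and the strain behind each is taken as unsettled. Counting intervals in the text are 95% intervals and cover counting error only.

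All members fell at the level of mRNA in 3-AT. Of the 10 genes, 10 were lower in 3-AT by edgeR's quasi-likelihood test at a Benjamini-Hochberg adjusted p under 0.05, whereas 37.7% of the 5290 genes tested were lower. The median log2 fold change of the members was -2.19, beside 0.01 over all genes tested. In bulk libraries such as these, less mRNA in every cell and fewer cells with the mRNA cannot be told apart.

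The carboxylase gene ACC1 had 152 and 189 mRNA-seq RPM (reads scaled to 1000000 in the table's total) in 3-AT, against 969 and 872 RPM in rich medium. This is a log2 fold change of -2.78 ± 0.10 (SE, n = 2 libraries in each medium, adjusted p = 1.83e-58). FAS1, for the β subunit, had 259 and 274 RPM in 3-AT and 1021 and 889 RPM in rich medium. Both libraries of each medium lay close together, and the media did not overlap for either gene. The log2 fold change of FAS1 was -2.17 ± 0.09. FAS2, for the α subunit, had 453 and 459 RPM in 3-AT and 1370 and 1253 RPM in rich medium, and fell by 1.84 ± 0.08 on the log2 scale.

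OLE1, whose product introduces the double bond of unsaturated fatty acids, had 105 and 132 RPM in 3-AT, against 393 and 354 RPM in rich medium (log2 fold change -2.01 ± 0.11). The elongase genes spread most among the members. ELO2, whose enzyme works on the very long chains of sphingolipids, had only 21.4 and 22.0 RPM in 3-AT, against 202 and 172 RPM in rich medium, the strongest fall of the 10 at -3.42 ± 0.19. ELO3, which acts on the longest of these chains, had 72.4 and 68.0 RPM in 3-AT and 487 and 480 RPM in rich medium (-3.09 ± 0.12). ELO1, which lengthens medium chains, fell far less: it had 128 and 152 RPM in 3-AT and 212 and 184 RPM in rich medium (-0.84 ± 0.12).

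The genes that handle finished acyl-CoA also parted. ACB1 had 66.5 and 69.8 RPM in 3-AT, against 250 and 251 RPM in rich medium (-2.20 ± 0.14). FAA4 had 87.8 and 71.6 RPM in 3-AT and 470 and 486 RPM in rich medium (-2.88 ± 0.12). Its paralog FAA1 was nearly level, with 223 and 198 RPM in 3-AT and 243 and 241 RPM in rich medium. The fall of FAA1 was -0.50 ± 0.10 (adjusted p = 6.99e-06), and with table totals in place of TMM scaling it was -0.18 with an adjusted p of 0.105, so that its call rests on the scaling.

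**Figure D1:**
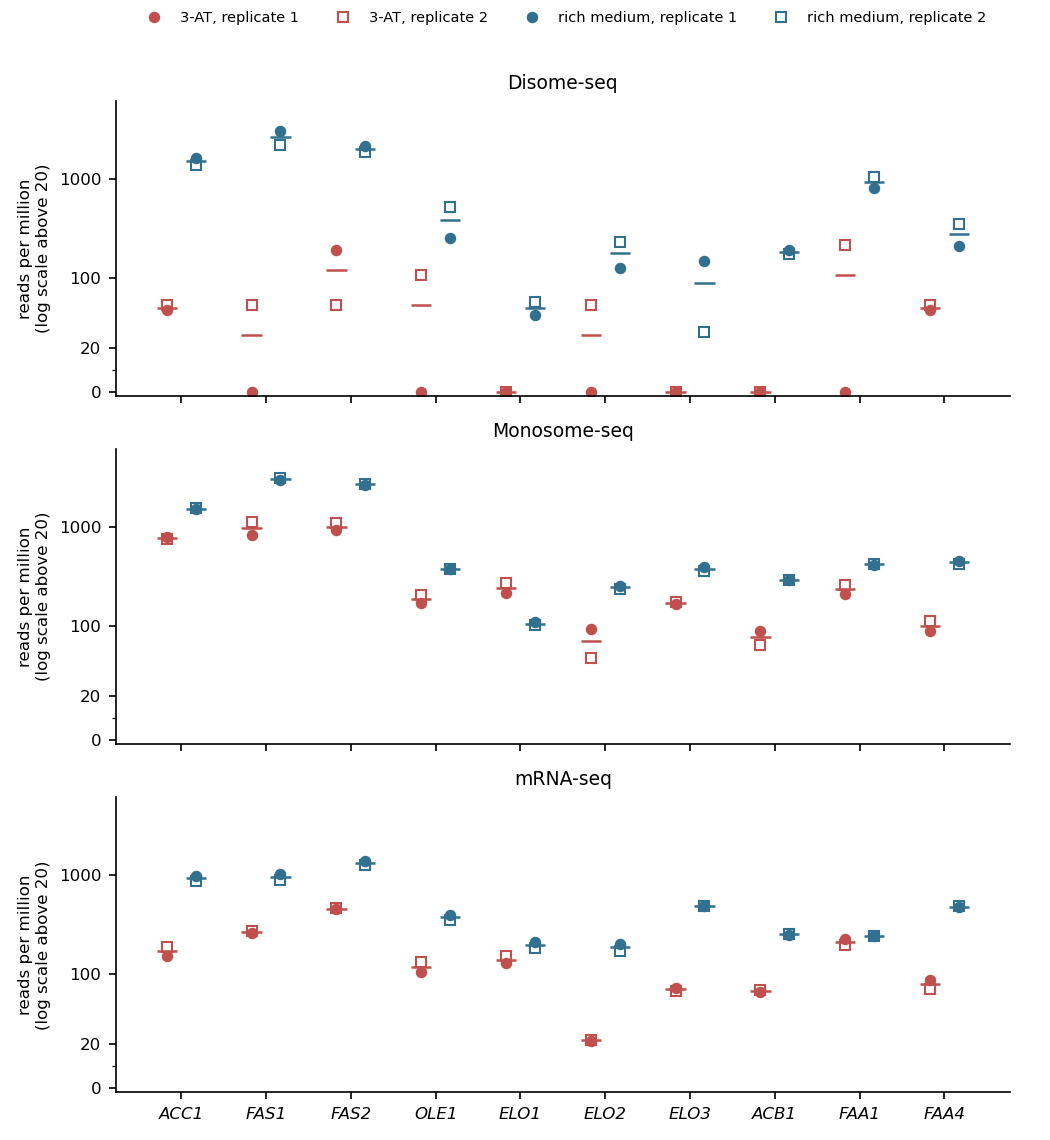
RPM (log scale above 20, linear below) of the 10 genes in each assay, disome-seq at the top and mRNA-seq at the bottom, for 3-AT (left of each pair) and rich medium (right), with points for replicates and a short line for their mean. In mRNA-seq the 3-AT points lie below the rich-medium points for every gene, and in monosome-seq for every gene but ELO1, which had 213 and 273 RPM in 3-AT and 110 and 102 RPM in rich medium.

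Ribosome occupancy fell as the mRNA did in 9 members, though not always by the same amount, and went the other way for ELO1. In monosome-seq 9 of the 10 were lower in 3-AT, where 31.7% of 4169 genes tested were lower, and 1 was higher, where 33.8% were higher. ACC1 had 792 and 750 RPM in 3-AT, against 1503 and 1527 RPM in rich medium (log2 fold change -1.26 ± 0.11, adjusted p = 1.61e-11). FAS1 had 825 and 1102 RPM in 3-AT, against 2970 and 3093 RPM in rich medium (-1.95 ± 0.11). FAS2 had 919 and 1076 RPM in 3-AT, against 2623 and 2704 RPM in rich medium (-1.71 ± 0.11). The synthase genes thus kept no overlap between media, and their 3-AT replicates differed from each other more than the rich-medium ones did.

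ELO1 is the exception, with 213 and 273 RPM in 3-AT and 110 and 102 RPM in rich medium, a rise of 0.89 ± 0.19 on the log2 scale (adjusted p = 0.000171). The remaining falls ran from -1.13 ± 0.15 for FAA1 to -2.41 ± 0.18 for FAA4, with OLE1 at -1.30, ELO3 at -1.42, ELO2 at -2.06 and ACB1 at -2.17. ELO2 is the least certain of them, since its 3-AT libraries held 25 and 11 footprints. Together the 10 genes took 0.357% and 0.406% of the monosome footprints in 3-AT, against 0.939% and 0.953% in rich medium, and 0.157% and 0.164% of the mRNA-seq reads in 3-AT, against 0.562% and 0.518% in rich medium.

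**Figure D2:**
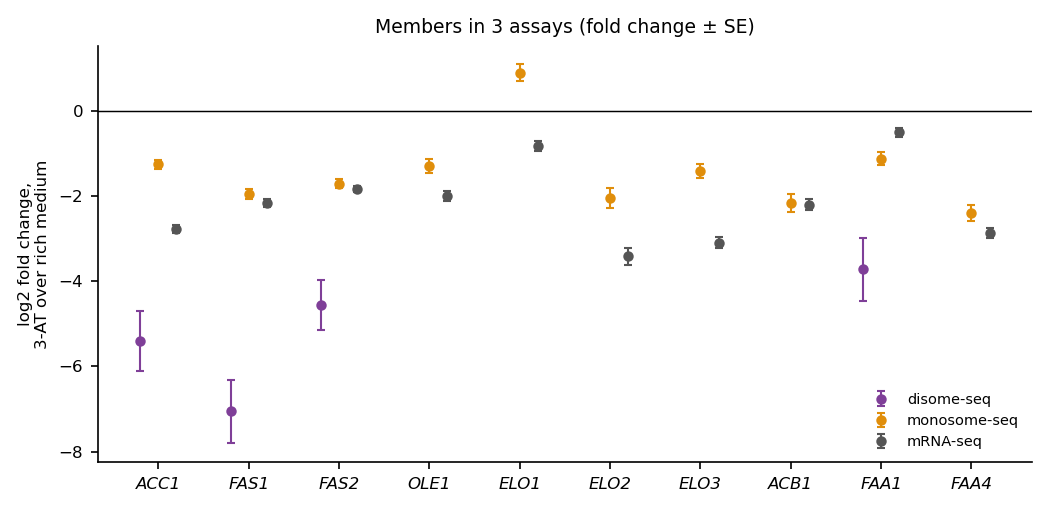
Log2 fold changes of 3-AT over rich medium with their standard errors from edgeR, for disome-seq, monosome-seq and mRNA-seq (n = 2 libraries in each medium). All values are below 0 except monosome-seq of ELO1 at 0.89, and disome-seq has values only for the 4 genes that passed the filter on low counts.

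Disome footprints of the members were almost gone in 3-AT. The 10 genes together held 6 and 11 disome footprints in 3-AT, against 404 and 270 in rich medium, which is 0.0284% and 0.0585% of the table totals in 3-AT and 0.853% and 0.778% in rich medium. FAS1 had 0 and 1 footprints in 3-AT and 143 and 75 in rich medium. ACC1 had 1 and 1 in 3-AT and 77 and 48 in rich medium, and FAS2 had 4 and 1 in 3-AT and 100 and 64 in rich medium. The 3 longest genes held few footprints each in 3-AT and most of the members' disomes in rich medium.

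Of the members, 4 passed the filter on low counts in this comparison, all through the rich-medium libraries, so their calls are given as values and not as a share. They are ACC1, FAS1, FAS2 and FAA1. All 4 were called lower in 3-AT and 43.1% of the 624 genes tested were lower, but genes that enter through the medium in which they are high could hardly be called otherwise, and nothing is read from the count. The ratio of RPM in 3-AT to RPM in rich medium, from summed counts, is given instead, with its counting interval. It was 0.00943 for FAS1 (0.000238 to 0.0531) and 0.0329 for ACC1 (0.00394 to 0.121). For FAS2 it was 0.0627 (0.0201 to 0.149). FAA1 had 0 and 4 footprints in 3-AT, against 38 and 36 in rich medium, a ratio of 0.111 (0.0295 to 0.297). These ratios, and the calls, rest on scaling among the genes of the tables: with the study's totals of uniquely mapped reads as library sizes 0 of the 4 were called, and the median over all genes tested was 4.81 on the log2 scale.

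The remaining members were too shallow for that fit. OLE1 had 0 and 2 disome footprints in 3-AT, against 12 and 18 in rich medium. ELO2 had 0 and 1 in 3-AT and 6 and 8 in rich medium, and FAA4 had 1 and 1 in 3-AT and 10 and 12 in rich medium. ACB1 had 0 in both 3-AT libraries and 9 and 6 in rich medium, at least 2.43-fold lower in 3-AT when its 0 is set to 3 counts over the group. ELO3 had 0 in both 3-AT libraries and 7 and 1 in rich medium, at least 1.30-fold lower by the same floor. ELO1, with 0 in 3-AT and 2 and 2 in rich medium, was too low for a fold.

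The fall of disomes was larger than that of monosomes on the same genes. In 3-AT the 10 members held 17 disome and 1893 monosome footprints, or 8.98 disomes per 1000 monosomes, where the whole tables held 80.1 per 1000. At that ratio, 151.6 disome footprints would stand beside these monosomes. In rich medium the members held 674 disome and 13302 monosome footprints, or 50.7 per 1000, beside 58.3 per 1000 in the tables. Summed over the members, the ratio was thus well under the tables in 3-AT and near them in rich medium. The ratio of a whole table is weighted towards its most read genes: the median gene with at least 100 monosome footprints had 50.0 per 1000 in 3-AT and 37.2 in rich medium, so that the members lay below it in 3-AT and above it in rich medium.

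In the comparison of disome-seq with monosome-seq in 3-AT, 8 members passed the filter, all of them through the monosome-seq libraries, and 5 were called lower in disome-seq, where 20.2% of 2275 genes were lower. As these members entered through the assay in which they are high, their count is not read against that share. FAS1 had 1 disome footprint beside 475 monosome footprints, 2.11 per 1000 (0.0532 to 11.8), and 38.1 would stand there at the table's ratio. ACC1 had 2 beside 385, or 5.20 per 1000 (0.627 to 18.9). FAS2 had 5 beside 494, or 10.1 per 1000 (3.27 to 23.8), with a fitted log2 fold change of -3.13 ± 0.51 (adjusted p = 5.79e-05). ELO1 had 0 beside 120 and ELO3 had 0 beside 85, which allow up to 31.2 and 44.4 per 1000. The ELO3 call was lost when either 3-AT disome-seq library was left out (adjusted p = 0.0774 and 0.0649). OLE1, FAA1 and FAA4 did not pass, with adjusted p of 0.102, 0.181 and 0.398, and FAA1 passed at 0.0378 without disome-seq replicate 2 of 3-AT, which held all of its 4 footprints.

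Among the 949 genes with at least 100 monosome footprints in 3-AT, 43 had no disome footprint at all. Ordered from the lowest ratio, FAS1 stood at rank 47, ACC1 at 63 and FAS2 at 116, with ELO1 among the 43. FAA1, the other member in this order, stood at rank 342 with 34.5 per 1000, below the median gene at 50.0. The ratio also differed with gene length. With the members left out, it was 109, 91.7, 77.9, 61.0 and 46.3 per 1000 in 3-AT for genes of up to 500, 1000, 2000 and 4000 nt and for the 210 longer ones. In rich medium the same classes had 79.6, 52.1, 56.1, 62.6 and 36.2 per 1000, which is no steady fall. ACC1, FAS1 and FAS2 have coding sequences of 6702, 6156 and 5664 nt, and each lay below the value of its class in 3-AT and above it in rich medium, where they had 58.7, 51.2 and 43.8 per 1000.

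The members differed in histidine codons. ACC1 has 53, FAS1 39 and FAS2 30, or 2.37, 1.90 and 1.59 per 100 codons, so that ACC1 lies above and FAS1 and FAS2 lie below the median gene at 2.05 per 100. OLE1 has the most, at 4.12 per 100 codons, and held 2 disome footprints in 3-AT. ACB1 has no histidine codon and held none. The part of codon content in the disome counts was not tested.

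**Figure D3:**
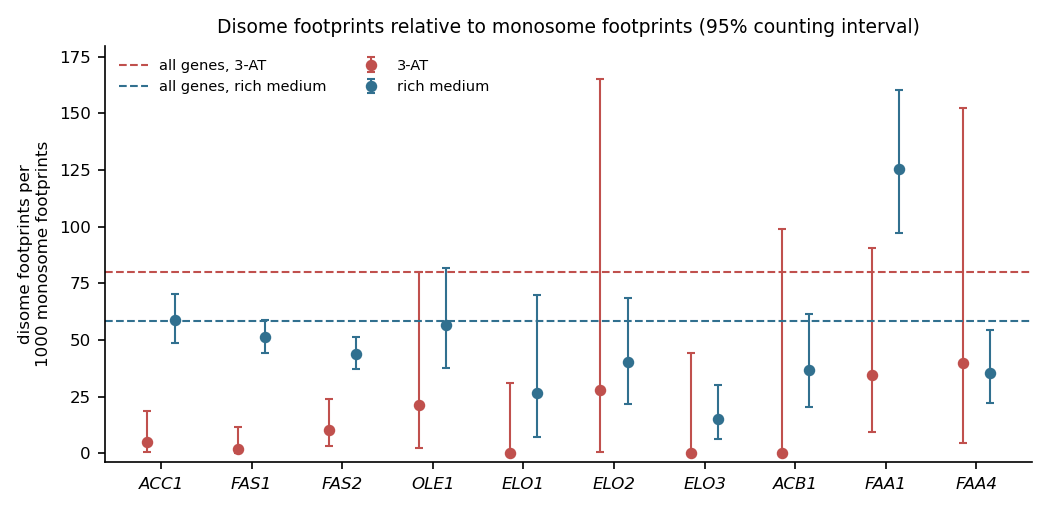
Disome footprints per 1000 monosome footprints for each gene, summed over 2 replicates, in 3-AT (left of each pair) and rich medium (right), with 95% counting intervals and dashed lines for all genes. In 3-AT the intervals of ACC1, FAS1, FAS2, OLE1, ELO1 and ELO3 end below the line of 80.1 per 1000, and in rich medium only FAA1, at 126 per 1000, lies above the line of 58.3 with its whole interval.

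In rich medium the ratio of disomes to monosomes differed from the general level for few members. Of the 10, 1 was higher in disome-seq, where 9.03% of 3089 genes were higher, and 1 was lower, where 9.42% were lower. FAA1 had 38 and 36 disome footprints beside 333 and 256 monosome footprints, or 126 per 1000 (97.3 to 160), a log2 fold change of 1.37 ± 0.22 (adjusted p = 1.82e-08). ELO3 had 7 and 1 disome footprints beside 311 and 218 monosome footprints, or 15.1 per 1000 (6.50 to 30.0), a change of -1.68 ± 0.45 (adjusted p = 0.0021). It passed the filter on low counts only through monosome-seq, where it is high, so its call is not read against the 9.42%. The ELO3 call was lost without disome-seq replicate 2 (-1.11, adjusted p = 0.156) and without monosome-seq replicate 1 (-1.66, adjusted p = 0.0722). FAS1, FAS2 and ACC1 had 51.2, 43.8 and 58.7 per 1000 and were not called.

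The difference between media of the disome to monosome ratio was tested in a fit of all 8 libraries. Of the 10 members, 5 were lower in 3-AT and 0 higher, where 14.8% of 2871 genes were lower. The members passed the filter through libraries other than 3-AT disome-seq, where none held more than 4 footprints in a library. Their count is therefore not read against that share. The change of FAS1 was -5.83 ± 0.81 (adjusted p = 1.06e-10), of ACC1 -4.76 ± 0.71 and of FAS2 -3.39 ± 0.59 on the log2 scale. FAA1, the gene with the highest ratio in rich medium, changed by -3.15 ± 0.65. The sizes of these changes are uncertain: leaving out 1 library gave -10.82 to -4.94 for FAS1, -5.01 to -4.13 for ACC1, -4.77 to -2.68 for FAS2 and -10.11 to -2.24 for FAA1, with every call kept. The lowest values of FAS1 and FAA1 came without replicate 2 of 3-AT disome-seq, which held all of their disome footprints in 3-AT, and that of FAS2 came without replicate 1, which held 4 of its 5. OLE1 changed by -2.67 ± 0.92 (adjusted p = 0.0278), and lost its call with DESeq2 (adjusted p = 0.13), its size factors (0.106) or table totals (0.217), and without replicate 2 of rich-medium disome-seq or monosome-seq, replicate 1 of 3-AT disome-seq or replicate 2 of 3-AT monosome-seq (0.164 to 0.275). ELO1, at an adjusted p of 0.0504, and ELO2, ELO3, ACB1 and FAA4 were not called. The median over all genes in this fit was -0.77, so that the changes above are to be read against it. With the study's totals of uniquely mapped reads that median was 3.91, and 0 members were called.

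The members carried more ribosome footprints per mRNA than most genes. In 3-AT 9 of the 10 were higher in monosome-seq than in mRNA-seq, where 25.3% of 4694 genes were higher. ELO2 passed the filter on low counts only through monosome-seq, where it is high, so its call is not read against that share. ACC1 stood at 2.66 ± 0.13, FAS1 at 2.30 ± 0.13, ELO2 at 2.18 ± 0.38, ELO3 at 1.72 ± 0.21 and FAS2 at 1.58 ± 0.11. ELO1 had 1.26 ± 0.18, OLE1 1.14 ± 0.21, FAA4 0.76 ± 0.25 and FAA1 0.59 ± 0.17. ACB1, at 0.66 ± 0.28, was not called (adjusted p = 0.0591). It was called with DESeq2's size factors (0.71, adjusted p = 0.0438), with the study's totals of uniquely mapped reads, where all 10 were called, and without monosome-seq replicate 2 (0.95, adjusted p = 0.024). The calls of FAA1 and FAA4 were lost with table totals, with DESeq2, without mRNA-seq replicate 2 of 3-AT and without monosome-seq replicate 2 of 3-AT. Adjusted p was then 0.083 and 0.0621 for FAA1 and 0.109 and 0.0975 for FAA4 without those libraries, 0.52 and 0.311 with table totals, and 0.099 and 0.159 with DESeq2, for FAA1 and FAA4 in that order.

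In rich medium 9 of the 10 were again higher in monosome-seq than in mRNA-seq, where 25.9% of 5099 genes were higher. FAS1 led with a log2 fold change of 2.25 ± 0.08 (adjusted p = 4.70e-175), at rank 5087 of 5099 from the lowest. FAS2 had 1.60 ± 0.08, FAA1 1.37 ± 0.10 and ACC1 1.30 ± 0.08. ELO2 had 0.99, ACB1 0.79, OLE1 0.60, FAA4 0.45 and ELO3 0.21. ELO1 was the only member on the lower side, at -0.31 ± 0.14 (adjusted p = 0.0504). With table totals ELO1 was called lower at -0.89 and ELO3 at -0.37 (adjusted p = 6.15e-07 and 0.000557), FAA4 turned to -0.13, and OLE1 and ACB1 lost their calls at 0.02 and 0.21, so that the signs of the weaker members rest on the scaling. The ELO3 call was also lost with DESeq2 (adjusted p = 0.16) and whichever library was left out (0.0562 to 0.383), and ELO1 was called lower without mRNA-seq replicate 2 (-0.42, adjusted p = 0.0126).

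The change of this ratio between media was called for the elongase genes, ACC1, OLE1 and FAA1, and for neither synthase gene. Of the 10 members, 5 were higher in 3-AT, where 16.9% of 5160 genes were higher, and 1 was lower, where 12.1% were lower. ELO1 changed by 1.68 ± 0.23 (adjusted p = 4.58e-11), ELO3 by 1.63 ± 0.25, ACC1 by 1.47 ± 0.16, ELO2 by 1.31 ± 0.38 and OLE1 by 0.66 ± 0.23. FAA1 was the only member called lower in 3-AT, at -0.67 ± 0.20 (adjusted p = 0.00421). FAS1, FAS2, ACB1 and FAA4 had changes of 0.17 ± 0.15, 0.09 ± 0.14, -0.01 ± 0.32 and 0.42 ± 0.27 and were not called. The ELO2 call was lost without replicate 1 of 3-AT in monosome-seq (0.65, adjusted p = 0.434) or in mRNA-seq (adjusted p = 0.0649). The OLE1 call was lost with DESeq2 (adjusted p = 0.0961) and without monosome-seq replicate 2 of rich medium, monosome-seq replicate 2 of 3-AT or mRNA-seq replicate 1 of 3-AT, at 0.38 to 0.61.

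FAS1 and FAS2 encode subunits that are joined in equal number, and their monosome footprints per nucleotide were closer to equal than their mRNA was. In monosome-seq the FAS1 to FAS2 ratio per nucleotide was 0.83 (0.69 to 0.995) and 0.94 (0.79 to 1.13) in 3-AT, against 1.04 (0.98 to 1.11) and 1.05 (0.98 to 1.12) in rich medium. From counts summed over replicates it was 0.885 (0.778 to 1.005) in 3-AT and 1.046 (1.001 to 1.094) in rich medium. In mRNA-seq it was 0.53 (0.44 to 0.62) and 0.55 (0.44 to 0.67) in 3-AT, against 0.69 (0.65 to 0.72) and 0.65 (0.62 to 0.69) in rich medium. All 4 mRNA-seq libraries lay below all 4 monosome-seq libraries. Disome-seq in rich medium gave 1.32 (1.01 to 1.72) and 1.08 (0.76 to 1.53), and in 3-AT the 1 and 5 summed footprints of FAS1 and FAS2 gave no usable ratio. The library of transcripts with 2 ribosomes gave 1.38 (1.25 to 1.53).

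**Figure D4:**
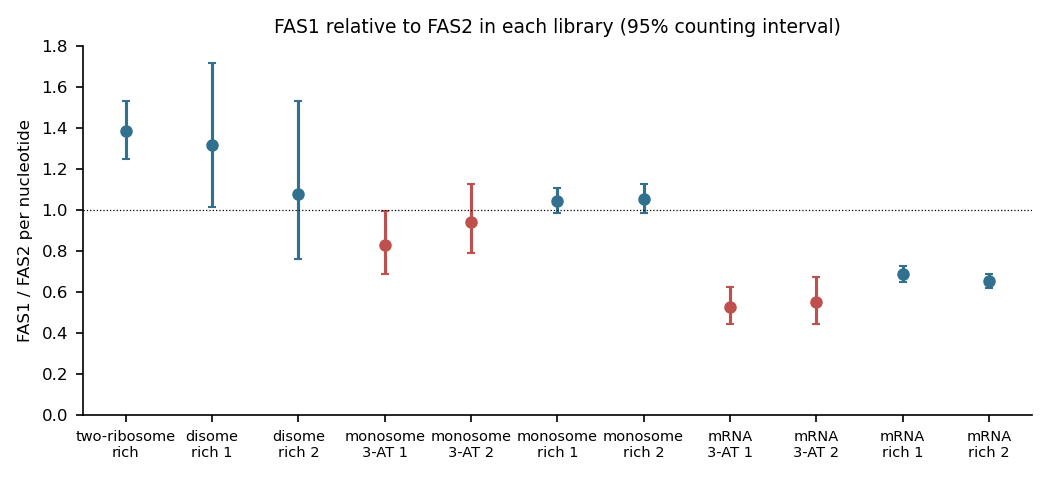
Ratio of FAS1 to FAS2 counts per nucleotide of coding sequence in each library, 3-AT in red and rich medium in blue, with 95% counting intervals; the dotted line marks 1. Monosome-seq libraries lie between 0.83 and 1.05 and mRNA-seq libraries between 0.53 and 0.69, while the library of transcripts with 2 ribosomes lies at 1.38.

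Levels per length ordered the members differently from counts. In 3-AT the mean monosome density in RPM per kilobase of coding sequence (RPKM) was 293 for ACB1, 261 for ELO1, 176 for FAS2, 165 for ELO3 and 157 for FAS1. OLE1, ACC1, FAA1, ELO2 and FAA4 followed at 123, 115, 112, 67.6 and 48.5 RPKM. Here most neighbours overlapped, but ELO1 lay above FAS2, FAS1 above OLE1 and FAA1 above ELO2 in every replicate. In rich medium the order was ACB1 at 1099, FAS1 at 492, FAS2 at 470, ELO3 at 360, OLE1 at 246, ELO2 at 236, ACC1 at 226, FAA4 at 209, FAA1 at 199 and ELO1 at 114 RPKM. Among these neighbours the replicates of ELO2 and ACC1, and of FAA4 and FAA1, overlapped, and the other neighbours did not. ELO1 stood next to the top in 3-AT and last in rich medium.

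In the library from transcripts bound by 2 ribosomes, the members made up a graded set, and with 1 library its values are a description. FAS1 had 945 footprints, 2353 RPM (2207 to 2507), beside 2970 and 3093 RPM in the rich-medium monosome-seq libraries. FAS2 had 629 footprints, 1566 RPM (1448 to 1693), beside 2623 and 2704 RPM, and ACC1 had 440, 1095 RPM (998 to 1203), beside 1503 and 1527 RPM. The ratios to monosome-seq were 0.78, 0.59 and 0.72, and the median over 1815 genes with at least 100 monosome footprints was 0.43. ACB1 and OLE1 exceeded their monosome-seq level, at 717 RPM beside 288 and 292 RPM and at 580 RPM beside 377 and 377 RPM. With totals that leave out the 10 most counted genes of each library FAA4 did so too, at a log2 ratio of 0.15, against -0.10 with table totals. ELO3 was at the other end, with 13 footprints, 32.4 RPM (18.9 to 55.4), beside 388 and 359 RPM.

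The footprints of these transcripts lay unevenly along the coding sequence. In the first 50 codons FAS1 held 3.50% of its footprints (2.50% to 4.87%), beside 2.44% of its length, and FAA4 held 21.5% (15.9% to 28.4%), beside 7.19% of its length. FAS2 held 0.64% (0.25% to 1.62%), beside 2.65% of its length, OLE1 3.86% (2.05% to 7.18%), beside 9.78%, and ACB1 39.2% (33.8% to 45.0%), beside 56.8%. The intervals of ACC1, ELO1, ELO2, ELO3 and FAA1 included the share of their length. The window mattered: in the first 100 codons FAS2 held 11.0% (8.76% to 13.7%), beside 5.30% of its length, the opposite direction. In the first 30 codons FAA4 held 1.23% (0.337% to 4.36%), an interval that just included its 4.32% of the length. Over 763 genes with at least 50 footprints the median ratio of footprint share to length share was 0.49. Along FAS1 the last 10% of the coding sequence held 18.6% of the footprints, and along FAS2 the last 10% held 19.6% and the first 10% held 22.3%. The median over 24 other genes longer than 4000 nt was 13.5% in the last 10% and 16.3% in the first 10%.

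A few positions carried many footprints, and their sequences show which codon stood in the ribosomal A site, where the next tRNA is decoded. The 28 nt around each position are given for the 3 highest of the members and for the highest of FAS1, FAS2 and ACC1, with the A-site codon in capitals and each sequence written 5′ to 3′ on the gene's strand in the R64 genome (RefSeq):
OLE1, codon 145: aacgttttccttttcTCCgttttctact
ACB1, codon 17: gccgtcaacgagctaCCAacgaagccct
ACB1, codon 85: caactgattgccaagTACtcctcttag
FAS1, codon 967: aagacattgtctttaATCcaatcctatt
FAS2, codon 1736: ttgactttcaactctAAAaacatccaaa
ACC1, codon 1486: agacctattgctactCCTtaccctgtta
The OLE1 stretch (chrVII:399045-399072, plus strand) held 88 of 233 footprints, 37.8% (31.8% to 44.1%), at a serine codon, the largest share at 1 position in any of the members. The share of ELO2 at its codon 336 overlapped it, with 16 of 44 footprints, 36.4% (23.8% to 51.1%). The ACB1 stretches (chrVII:559934-559961 and chrVII:559731-559757, minus strand) held 61 and 53 of 288 footprints, at a proline codon and at a tyrosine codon next to the end of the gene, where the window ends with the stop codon. FAS1 (chrXI:103554-103581, plus strand) had 42 footprints at its highest position, an isoleucine codon, FAS2 (chrXVI:113842-113869, plus strand) 22 at a lysine codon and ACC1 (chrXIV:656907-656934, minus strand) 26 at a proline codon. These are 4.44%, 3.50% and 5.91% of the footprints of their genes. None of the 6 codons encodes histidine, and proline codons are the A-site codon in 2 of them. The positions were picked as the highest, ACB1 has no histidine codon, and the library is from rich medium. Nothing is therefore read from these codons.

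**Figure D5:**
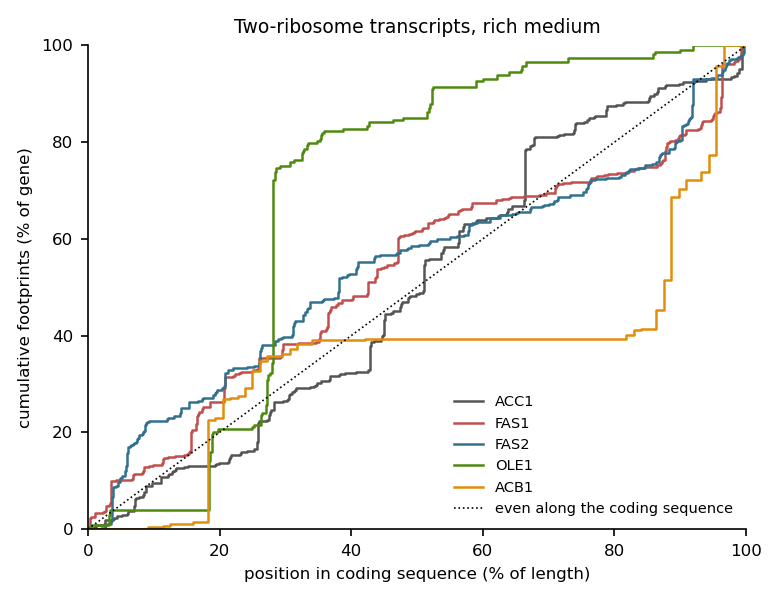
Cumulative share of the footprints of ACC1, FAS1, FAS2, OLE1 and ACB1 along the coding sequence in the library of transcripts with 2 ribosomes, with a dotted line for an even spread. OLE1 steps up by 37.8% at a single position, ACB1 is nearly flat through its middle, and FAS1 and FAS2 run near each other.

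FAS1 footprints covered 298 of 2052 codons, or 14.5%, FAS2 footprints 13.1% and ACC1 footprints 8.33%. The short ACB1 was covered at 35.2% of its codons. ELO1 and ELO3, at 15 and 13 footprints, had no position above 2 footprints, so that their distribution cannot be read at this depth. All members have a single coding exon, and every stretch of 28 nt in them occurs once in the coding sequences, save in FAA4, where 99.6% do.

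The 500 nt upstream of each start codon were searched on both strands for CATGTG, the core of the element bound by Ino2 and Ino4, and for TGACTC, the core of the Gcn4 site. CATGTG was found in 4 of the 10 members, where 741 of 5689 genes of the annotation hold it in the same window. TGACTC was found in 0 of the 10, where 733 genes hold it. The 4 matches are shown with 9 nt on each side, the match in capitals on the strand of the gene:
ACC1: tgatcggtgCATGTGtttataaaa
FAS2: ccgcgttttCACATGctacctcat
ELO2: gtacgtattCACATGtcctggcgt
FAA1: gatctccgcCATGTGaatatttat
They begin 342, 232, 167 and 399 nt before the start codons, at chrXIV:661702-661725 for ACC1 (minus strand), chrXVI:108411-108434 for FAS2, chrIII:190416-190439 for ELO2 and chrXV:908935-908958 for FAA1. In FAS2 and ELO2 the element stands on the opposite strand, so that it reads CACATG. A match describes these letters only, and no binding was measured.

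Other genes of lipid metabolism did not move as a block with the members. Among 8 other genes of cytosolic synthesis, elongation and modification, 5 were lower and 1 higher at the level of mRNA in 3-AT, with a median log2 fold change of -0.32. ACS2, the main source of acetyl-CoA in glucose, had 91 and 50 mRNA-seq reads in 3-AT and 797 and 901 in rich medium (-2.04 ± 0.12). IFA38 and PHS1, which work beside the elongases, had log2 fold changes of -1.13 and -0.83, and ACS1, another acetyl-CoA synthetase, was higher by 0.83 with 23 and 8 reads in 3-AT. Among 3 other acyl-CoA synthetase and uptake genes, the peroxisomal FAA2 rose by 1.99 and FAA3 and FAT1 were lower at -1.93 and -0.80.

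Fatty acid synthesis in mitochondria, which uses separate enzymes, differed from the members at the level of mRNA. Of its 8 genes, 5 were higher in 3-AT at the level of mRNA and 0 lower, with a median of 0.81. In monosome-seq 2 of the 6 tested were higher, where 33.8% of all genes tested were higher. There 1, ETR1, was lower at -0.62, where 31.7% were lower, so nothing is read from the monosome-seq counts. MCT1, the malonyl-CoA transferase, had 421 and 284 mRNA-seq reads in 3-AT and 205 and 243 in rich medium (2.21 ± 0.10). CEM1, the mitochondrial condensing enzyme, rose by 1.97, PPT2 by 1.92 and ACP1, the acyl carrier protein, by 0.91. MCT1 also had 13 and 19 disome footprints in 3-AT, against 0 and 0 in rich medium.

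The genes of peroxisomal β-oxidation, which breaks fatty acids down, were higher in 6 of 7 tested and lower in 0, though all were sparsely read. POX1, the first enzyme of the path, had 14 and 8 mRNA-seq reads in 3-AT, against 0 and 0 in rich medium, at least 26.9-fold higher in 3-AT. PXA2, TES1 and ECI1 rose by 2.08, 0.72 and 0.76 in mRNA, and TES1 and ECI1 by 2.43 and 1.91 in monosome-seq. Among 9 regulators of lipid genes, 3 were higher and 3 lower. OAF1 and PIP2, which pair to activate genes of β-oxidation, rose by 0.66 and 1.82 in mRNA and by 2.88 and 2.34 in monosome-seq. INO4 rose by 1.44, and MGA2, an activator of OLE1, fell by 0.94.

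Among 14 genes of glycerolipid and phospholipid synthesis, 4 were higher and 7 lower. INO1, which makes inositol phosphate, rose by 2.93 and OPI3 by 1.89, while CHO2 and CDS1 were lower at -2.43 and -1.77. INO1 was sparsely read, with 53 and 36 mRNA-seq reads in 3-AT and 19 and 15 in rich medium. It had no footprint in any monosome-seq or disome-seq library. Among 8 sphingolipid genes, 6 were lower and 1 higher, LIP1 by 0.73, and LCB1, a subunit of the first enzyme, was lower at -1.46 and LCB2 at -0.87. AUR1, which makes inositol phosphorylceramide, changed by -0.82. These lists were drawn from knowledge of the pathways, and their counts over all genes tested in mRNA-seq stand at 37.7% higher and 37.7% lower.

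The genes whose pattern over the 12 libraries was most like the mean of FAS1 and FAS2 were found by Pearson's r of log2(RPM + 1), each assay centred on its own mean, among 512 genes with a mean of at least 10 disome footprints. They were CDC60, the leucyl-tRNA synthetase, at 0.997, the small-subunit protein genes RPS7B at 0.992 and RPS6B at 0.987, and VMA1, a subunit of the vacuolar proton pump, and GDH1, a glutamate dehydrogenase, both at 0.986. All points of a correlation share the 12 libraries and the same 2 media. Set against these genes, ACB1 among the members would stand at rank 6, ACC1 at 37, ELO3 at 72, ELO1 at 132, OLE1 at 156, ELO2 at 157, and FAA1 and FAA4 both at 175.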

How the data were processed

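Per the labels, each medium had 2 biological replicates of each assay. The authors kept the random bases of each read as a molecular identifier, trimmed adaptors (cutadapt 1.16), removed rRNA reads (Bowtie 1.2.2), aligned the rest to coding sequences of the SGD R64-1-1 genome (TopHat2 2.1.1) and discarded multiple alignments. The deposited tables hold whole-number counts per gene and replicate without normalization, of reads of 55 to 65 nt (disome-seq), 20 to 30 nt (monosome-seq) or 28 to 29 nt (mRNA-seq), and for transcripts with 2 ribosomes counts of footprints of 28 to 29 nt per A-site position. The methods state that reads alike in length, sequence and identifier were taken as 1, and do not say whether the deposited tables are from before or after that step. A gene not listed in a table was given 0.

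Counts were fitted with edgeR 4.0.16 in R 4.3.3 over the whole table of the libraries compared (TMM factors, default filter by group, quasi-likelihood F test, Benjamini-Hochberg adjustment, threshold 0.05), and the fits were tested on simulated data. P-values measure the spread between these libraries, and a fit gives each gene a common spread in all of them. Alternatives were DESeq2 1.42.0, its size factors, table totals, the study's totals of uniquely mapped reads, no filter, a replicate block and leaving out each library. Shares carry 95% Wilson intervals and ratios exact counting intervals, and 3 counts over a group stand in for 0. Coordinates and sequences are from RefSeq's R64 annotation, to which 5689 of the 5694 genes matched.

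The members and gene lists were chosen with earlier results of these data known. Named were the 10 members, and from each list up to 4 genes that passed between media with the largest changes in absolute size. Also named were the 5 genes most like FAS1 and FAS2 and the genes with deletion alleles in BY4742. In the library of 2 ribosomes the 3 highest positions and the highest of FAS1, FAS2 and ACC1 were named. LEU2 was not analysed here.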

Additional observations from a re-analysis of the deposited data

Results flagged for a closer look

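The ratio of disomes to monosomes differed between 3-AT and rich medium for 5 members by the test of the difference itself. The log2 changes were -5.83 for FAS1, -4.76 for ACC1, -3.39 for FAS2, -3.15 for FAA1 and -2.67 for OLE1. In unscaled counts the ratios of single replicates did not overlap between media for FAS1, ACC1, FAS2 and FAA1, and overlapped for OLE1. Scaled to RPM, those of OLE1 did not overlap either. OLE1 had 0 and 106 disome-seq RPM beside 172 and 204 monosome-seq RPM in 3-AT. In rich medium it had 253 and 519 disome-seq RPM beside 377 and 377 monosome-seq RPM. The 5 log2 changes rest on between 1 and 5 disome footprints for each gene in 3-AT.

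The ratio of monosome footprints to mRNA differed between media for 6 members. The log2 changes were 1.68 for ELO1, 1.63 for ELO3, 1.47 for ACC1, 1.31 for ELO2 and 0.66 for OLE1, and -0.67 for FAA1. No cause was tested.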

How the results depend on the processing

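The study's totals of uniquely mapped reads are left out of this count and are given below. Of 806 fold changes of single members under the other alternatives, 752 kept their direction and their side of the threshold. Of the rest, 35 lost a call, 6 gained one and 13 changed sign. The 10 mRNA falls were all called in every leave-one-out fit, as were 10 changes in monosome-seq. With DESeq2, all genes called numbered 423 for disome over monosome in 3-AT, 372 in rich medium, 1728 for monosome-seq between media, and 1271 in 3-AT and 1532 in rich medium for monosome over mRNA, against 718, 570, 2733, 2414 and 2637. Without the filter, disome-seq between media gave 845 calls, against 500, and 9 members, against 4. A window of 30 codons, against 50, left 2 members, against 5, outside the share of their length.

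The study's totals of uniquely mapped reads shifted whole comparisons. For disome over monosome they gave 1796 calls and 8 members in 3-AT and 4200 calls and 10 members in rich medium, with medians over all genes of -2.21 and -6.70. Disome-seq between media gave 752 calls, 743 of them higher, and 0 members, with a median over all genes of 4.81 and over the 4 members tested of -0.50. The change of disome over monosome gave 2183 calls and 0 members, with medians of 3.91 over all genes and 0.90 over the members, zeros included. The change of monosome over mRNA gave 4206 calls and 10 members, with a median of 1.90 over all genes. Members called lower between media in disome-seq, and in its change, therefore rest on scaling among the genes of the tables.

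Table totals moved the share of calls that are higher from 49.0% to 30.4% for disome over monosome in rich medium, from 15.5% to 51.2% for its change with 3-AT, from 49.1% to 24.2% and from 50.2% to 11.99% for monosome over mRNA in 3-AT and in rich medium, and from 50.0% to 63.7% and from 51.6% to 62.2% between media for mRNA-seq and monosome-seq. Members that changed sign were OLE1 (-0.042), FAS1 (-0.21) and ACC1 (-0.0004) with table totals and FAS1 (-0.16) without the filter, all for disome over monosome in rich medium, where none was called, and ELO3 (-0.37) and FAA4 (-0.13) for monosome over mRNA in rich medium with table totals.

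Leaving out 1 library gave 223 to 383 calls and 3 to 5 members for disome over monosome in 3-AT, 153 to 383 and 1 to 2 in rich medium, and 276 to 407 calls for its change. In rich medium OLE1 ran from -0.34 to 0.51, FAS1 from -0.44 to 0.23 and ACC1 from -0.080 to 0.33, and for the change of monosome over mRNA ACB1 ran from -0.35 to 0.25 and FAS2 from -0.0067 to 0.14. The labels do not say that replicate numbers pair libraries, and correlations of replicate differences between groups were -0.04 to 0.07. The replicate block changed 2 member calls, both for monosome over mRNA in rich medium: ELO1 was called at -0.32 (adjusted p = 0.0365) and ELO3 was not at 0.21 (adjusted p = 0.0578). The block left every other member's call in place and gave 403 calls over all genes for disome over monosome in rich medium, against 570. The causes were not tested.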
